A study of Mus musculus with 14 samples.

Results

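The genes described here encode the proteins of the cytosolic ribosome, followed in mouse uterus across genotype and folinic acid. A probe set was taken as a member when the platform annotation gave it 1 gene symbol, and that symbol was Rpl or Rps with a number and at most a final a, x, y or l, or was Rpsa, Rplp0, Rplp1 or Rplp2. This gave 100 of 45037 probe sets, for 46 of 18193 genes, 24 of the large subunit and 22 of the small subunit. Where a gene had several, the brightest by mean log2 signal stands for it. Probe sets with a mean over the 14 arrays below the median of all probe sets were not tested, and 43 of the 46 genes passed this filter. The members below it were Rpl3l, Rpl39l and Rps16. Another 110 probe sets carry a ribosomal protein symbol together with other symbols, often because pseudogenes and near-identical copies are spread over the genome, and 28 ribosomal protein genes, Rplp1, Rpl3, Rpl5 and Rpl10 among them, had no probe set of their own and are not members. Probes of the members may also bind such copies, so the values of single genes are uncertain to that degree.

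All mice were C57BL/6 females, and each of the 14 arrays holds RNA of uterus dissected at gestation day 3.5. The groups were Folr4-/- females given folinic acid (KO folinic acid, n = 4), Folr4-/- females given saline (KO saline, n = 3), wild-type females given folinic acid (WT folinic acid, n = 3) and wild-type females given saline (WT saline, n = 4). Folinic acid, a reduced folate, was injected into the peritoneum 2 times at 12.5 mg/kg, 10 and 3 days before mating. Replicates are labelled as biological. The titles of WT saline replicates 2 and 3 share a number, as do those of WT folinic acid replicates 1 and 2, and whether these animals are related is not given in the sources used here, so p-values measure the spread between these samples.

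Ribosomal proteins assemble with ribosomal RNA into the small subunit, which reads the mRNA, and the large subunit, which joins amino acids. Their mRNAs are among the most abundant in most cells, and many start with a run of pyrimidines, the 5′ terminal oligopyrimidine tract, through which mTOR signalling controls their translation in mammals. In the mouse uterus, the days before implantation are a time of steroid-driven growth of epithelium and then of stroma, which calls for protein synthesis.

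The starts of 9 member genes are shown because that tract is the sequence feature the family is known for. They are 7 genes described below for their differences or their role, and Rps3 and Rpl3l as members without a long run. The promoter sequences are those of RefSeq for build GRCm38.p6, and 40 of the 46 member genes matched an entry. Each stretch runs from 15 bases before the annotated start to 15 bases from it on, 5′ to 3′ on the strand of the gene. Capitals mark the longest run of C or T near the start, as far as it falls in the stretch.
Rpl7a, large subunit, chr2:26910792-26910821, plus strand: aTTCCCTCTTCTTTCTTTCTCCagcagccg
Rplp2, large subunit stalk, chr7:141447636-141447665, plus strand: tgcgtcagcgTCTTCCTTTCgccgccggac
Rplp0, large subunit stalk base, chr5:115559452-115559481, plus strand: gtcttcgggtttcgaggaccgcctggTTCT
Rpl12, large subunit stalk base, chr2:32961697-32961726, plus strand: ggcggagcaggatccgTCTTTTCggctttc
Rps10, small subunit, chr17:27635230-27635259, minus strand: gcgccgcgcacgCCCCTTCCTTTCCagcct
Rps6, small subunit, chr4:86857353-86857382, minus strand: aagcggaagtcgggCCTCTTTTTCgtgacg
Rps27, small subunit, chr3:90213634-90213663, minus strand: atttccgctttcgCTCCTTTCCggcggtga
Rps3, small subunit, chr7:99483695-99483724, minus strand: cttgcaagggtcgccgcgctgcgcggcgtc
Rpl3l, a muscle paralog of Rpl3, first of 2 listed starts, chr17:24727811-24727840, plus strand: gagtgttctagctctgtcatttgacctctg

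In Rpl7a, Rplp2, Rps10, Rps6 and Rps27 a C or T run spans the annotated start. In Rplp0 and Rpl12 the longest run has 7 bases and begins after the start. None of 6 or more was found near the start of Rps3 or Rpl3l. A run of 8 or more C or T on the gene strand, touching the bases from 20 before to 30 after the start, was found in 27 of the 40 matched members (67.5%) and in 26.4% of all 27025 genes with an entry. A run of 6 or more was found in 80.0% of members and 52.5% of all genes. The letters CTTTCC, which can lie inside such a run, occurred in that window on the gene strand in 8 of the 40 members and 2.8% of all genes, and on either strand of the whole 300-base window in 52.5% and 29.3%. The letters CCGGAAG, the core of sites for ETS family factors, occurred on either strand of the whole window in 20 of the 40 members and 9.9% of all genes. Its reverse complement begins with a short C and T stretch that can overlap a run. The letters AAGATGGC, found in sites for the factor YY1, occurred in 7.5% of members and 3.2% of all genes. These are matches of letters and no measure of binding. Rps6 and Rps27, which both have a tract at the start, had log2 differences of opposite sign between KO folinic acid and KO saline. The Rps27 signals overlapped, as given below. Whether the tract bears on the differences was not tested.

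The 43 measured members differed together from array to array. Their median signal was 24994, 28705, 27850 and 24572 on the KO folinic acid arrays and 35338, 39729 and 37975 on the KO saline arrays. It was 25430, 24091 and 30850 on the WT folinic acid arrays and 29498, 33622, 32472 and 30383 on the WT saline arrays. Every KO saline array lay above all arrays of the other groups, and WT folinic acid replicate 3 was the only folinic acid array inside the range of WT saline. The members' share of the summed signal of all probe sets was 2.96 ± 0.23% (SD, n = 4) in KO folinic acid, 4.04 ± 0.15% (SD, n = 3) in KO saline, 3.06 ± 0.40% (SD, n = 3) in WT folinic acid and 3.52 ± 0.25% (SD, n = 4) in WT saline. Of the 43 members, 36 had their highest group mean in KO saline and 33 their lowest in KO folinic acid. These values are under the deposited scaling. On it, 68 of 76 other genes with a mean log2 signal of 14 or more were also lower in KO folinic acid than in KO saline. In bulk tissue, fewer cells of a type and less RNA per cell cannot be told apart, and the part of array brightness was not tested.

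The spike controls are transcripts added at hybridization in fixed amounts. Their group means were highest in KO saline, then in WT saline, and lowest in both folinic acid groups, as those of the members were. The highest single array of the spikes was WT saline replicate 3. The mean log2 signal of the 9 spike probe sets was 11.28, 11.97, 11.94 and 11.46 in KO folinic acid and 13.09, 13.35 and 13.05 in KO saline. It was 11.30, 11.19 and 12.48 in WT folinic acid, and 12.20, 12.69, 13.60 and 12.34 in WT saline. The 3′ probe set of the cre spike lay between 31446 and 51197 in KO folinic acid and between 77670 and 95130 in KO saline, with no overlap. The mean log2 signal of the spikes was used as a covariate, chosen after these values were seen and given with each comparison. It did not overlap between KO folinic acid and KO saline, so there the covariate cannot tell spike signal and group apart. The part of the spikes in the members' differences was not tested otherwise. The arrays were deposited with a common trimmed mean, which holds their general level close. On this scale the median signal of all probe sets was 139 ± 4.94 in KO folinic acid (SD, n = 4), 134 ± 3.94 in KO saline (SD, n = 3), 141 ± 3.66 in WT folinic acid (SD, n = 3) and 143 ± 9.99 in WT saline (SD, n = 4). The 3′ to 5′ ratio of the actin controls, a sign of RNA quality, lay between 1.54 and 3.12 in KO folinic acid, 2.11 and 3.01 in KO saline, 1.68 and 2.42 in WT folinic acid, and 1.72 and 3.64 in WT saline. Izumo1r, the current name of the mutated gene, was below the filter with overlapping signals of 6.14 to 41.3 in KO folinic acid, 7 to 70.2 in KO saline, 13.5 to 54.8 in WT folinic acid and 19 to 72.4 in WT saline, so it gave no check of the genotype labels.

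**Figure D1:**
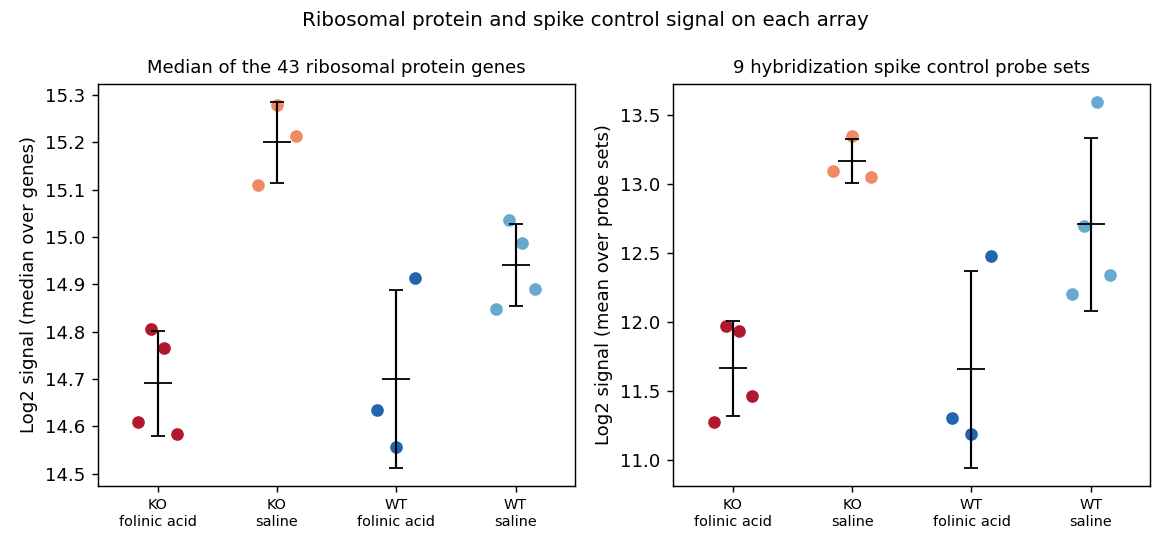
Median log2 signal of the 43 measured ribosomal protein genes (left) and mean log2 signal of 9 hybridization spike control probe sets (right) on each of the 14 arrays, by group. Points are arrays and bars the mean ± SD of the group; the group means of the members and of the spikes are highest in KO saline, and the members' mean is 14.69 in KO folinic acid against 15.20 in KO saline.

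Folinic acid in Folr4-/- uteri gave the largest median difference of the family among the 4 comparisons under the deposited scaling. Of the 43 members, 41 were lower in KO folinic acid than in KO saline, with a median log2 difference of -0.54, which is 1.45-fold, while the median of all 11269 genes tested was 0.0010. Under quantile normalization the median of the members was -0.015 with 28 of 43 lower, and with the spike signal as a covariate it was -0.21 with 35 lower. Quantile normalization gives every array the same set of values. At a mean log2 signal of 15 or more there were 20 members beside 11 other genes. It can therefore also remove a shift shared by the members, in this and every comparison, and cannot tell it from a shift of all bright probe sets. No member passed an adjusted p of 0.05 (lowest 0.12), and none of the 22519 probe sets did (0%). An unadjusted p under 0.05 was reached by 33 members, all lower, against 12.8% of all probe sets in either direction and 6.75% on the lower side. The signals of the groups did not overlap for 33 members on the lower side, against 5.76% of genes. Without KO folinic acid replicate 2, whose signal was above its group mean for 36 of the 43 members, 24 members passed the adjusted threshold, all lower, against 2.94% of all probe sets.

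Among the proteins of the large subunit stalk, which recruits the translation factors, Rplp0 forms the base and Rplp2 is one of the acidic proteins on it. Rplp0 had signals of 27626, 30600, 29761 and 29563 in KO folinic acid and 46773, 44793 and 55084 in KO saline. In WT folinic acid it had 31134, 26612 and 40368, and in WT saline 34995, 40696, 41426 and 39103. All KO saline arrays were above all others, and the KO folinic acid arrays lay close together. The log2 difference of KO folinic acid to KO saline was -0.73 ± 0.14 (SE; adjusted p = 0.12), the smallest p of any member, and it was -0.13 under quantile normalization. Rplp2 had 32022, 40395, 34558 and 33356 in KO folinic acid and 51758, 57212 and 52412 in KO saline, apart from each other, with a log2 difference of -0.62 ± 0.14 (SE; adjusted p = 0.129). Rpl12, another protein of the stalk base, had the opposite sign on a dimmer probe set. The mean log2 signal was 10.02 for Rpl12, 15.14 for Rplp0 and 15.32 for Rplp2. Rpl12 had signals of 1198, 1023, 1911 and 1130 in KO folinic acid and 869, 793 and 692 in KO saline. The groups did not overlap, KO folinic acid being the higher, and the log2 difference was 0.71 ± 0.33 (SE; adjusted p = 0.394), which turned to -0.33 with the spike covariate.

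In the body of the large subunit, Rpl7a gave 27001, 30448, 31753 and 27288 in KO folinic acid and 38474, 45310 and 45990 in KO saline. The groups were apart, with a log2 difference of -0.57 ± 0.12 (SE; adjusted p = 0.12). Rpl13a, which in human cells also leaves the ribosome to silence inflammatory mRNAs, differed by -0.65 ± 0.15 (SE; adjusted p = 0.133). Almost none of this was left under quantile normalization, as given below. Rpl6, Rpl8 and Rpl22 differed by -0.40 ± 0.11, -0.49 ± 0.12 and -0.41 ± 0.11 (SE), without overlap in any of them. Rpl11, which with Rpl5 and 5S RNA binds Mdm2 when ribosome assembly is disturbed, had 15201, 15511, 15448 and 14887 in KO folinic acid and 22770, 18782 and 24063 in KO saline. The KO folinic acid arrays were all below, and the log2 difference was -0.51 ± 0.14 (SE; adjusted p = 0.16), with -0.29 under quantile normalization and -0.62 with the spike covariate. The median of the 22 large subunit members was -0.02 under quantile normalization, so Rpl11 does not stand for the others there.

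In the small subunit, Rps10, altered in some patients with Diamond-Blackfan anaemia, gave 31163, 39806, 33637 and 32481 in KO folinic acid and 49792, 57136 and 50812 in KO saline. There was no overlap, and the log2 difference was -0.62 ± 0.13 (SE; adjusted p = 0.12). Rpsa, at the mRNA exit and also known as the laminin receptor precursor, differed by -0.67 ± 0.22 (SE; adjusted p = 0.249), and was at 0.24 with the spike covariate. Rps3 of the mRNA entry channel differed by -0.49 ± 0.11 (SE; adjusted p = 0.126). For Rps19, another gene of Diamond-Blackfan anaemia, 1 KO folinic acid array with 30124 reached the KO saline range of 30074 to 35682, and the log2 difference was -0.45 ± 0.15 (SE; adjusted p = 0.256). Rps27, a zinc finger protein, was one of the 2 members that were higher, with 245, 263, 296 and 332 in KO folinic acid and 146, 247 and 269 in KO saline. These overlap, at a log2 difference of 0.40 ± 0.22 (SE; adjusted p = 0.457).

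Rps6, the ribosomal protein phosphorylated by the S6 kinases, was the member whose difference varied least between the deposited scaling, quantile normalization and the spike covariate. It had signals of 2759, 3928, 3360 and 3128 in KO folinic acid and 4942, 4161 and 3990 in KO saline. In WT folinic acid it had 3782, 3730 and 3995, and in WT saline 3870, 3932, 3366 and 3892. KO folinic acid lay below KO saline without overlap, although its replicate 2 came close to the lowest KO saline array, and the wild-type groups overlapped. The log2 difference of KO folinic acid to KO saline was -0.41 ± 0.14 (SE; adjusted p = 0.249), -0.39 under quantile normalization and -0.37 with the spike covariate, with unadjusted p values of 0.00847, 0.00921 and 0.104. The Rps6 probe set had a mean log2 signal of 11.87. Other genes between 11 and 12 had a median of -0.02 in this comparison under the deposited scaling. Whether brightness bears on the small variation of Rps6 was not tested. Rps6 was chosen for this remark after its values were seen. Under quantile normalization it was one of 3 members at an unadjusted p under 0.05, with Rpl8 (-0.20) and Rpl11 (-0.29), against 11.2% of all probe sets. With the spike covariate 9 members were at that level, against 13.9%, among them Rplp0 (-0.39), Rpl7a (-0.43), Rps10 (-0.34) and Rps3 (-0.30).

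**Figure D2:**
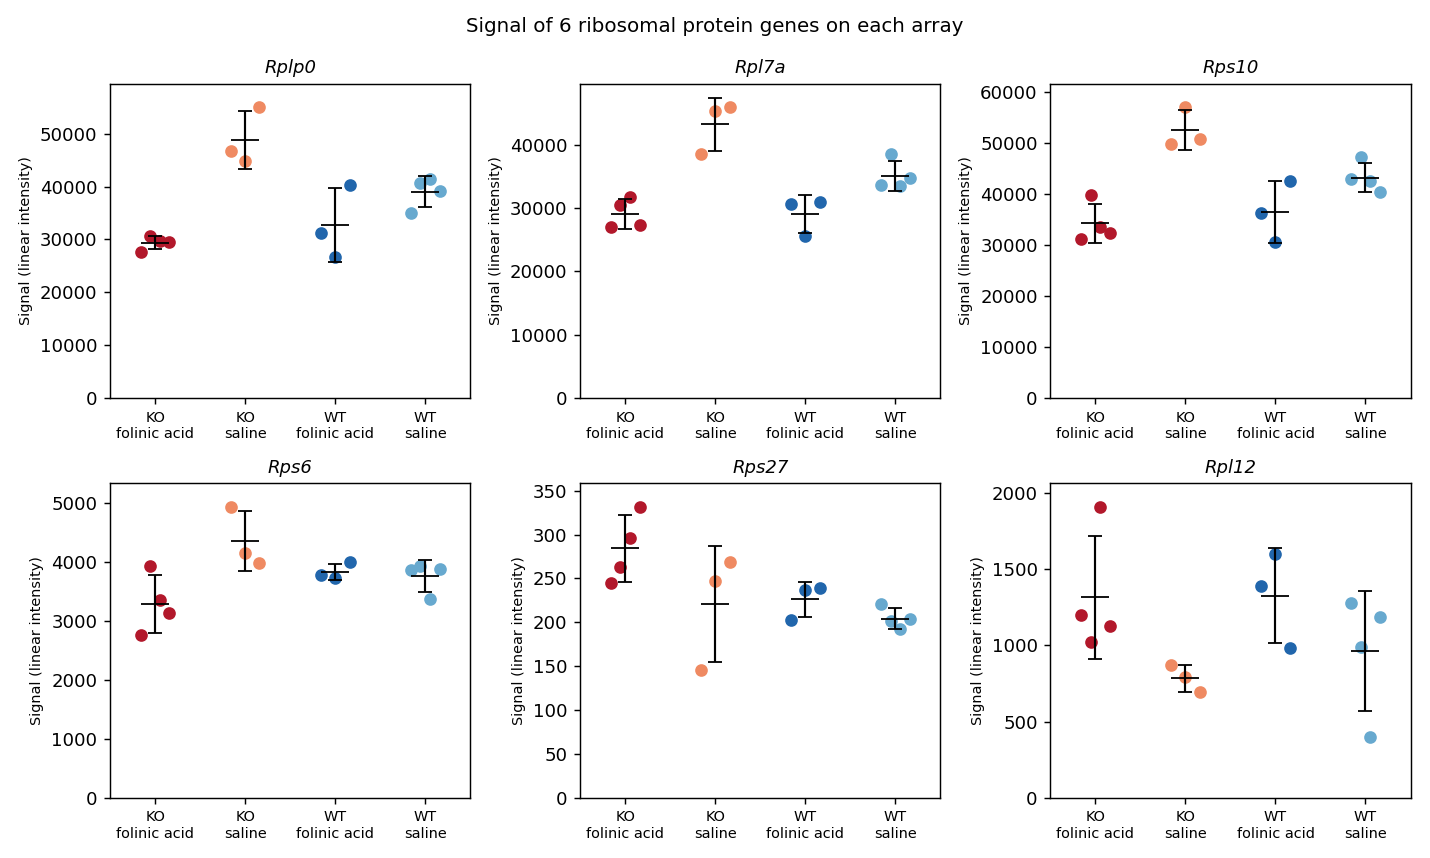
Linear signal of Rplp0, Rpl7a, Rps10, Rps6, Rps27 and Rpl12 on each array by group, with points for arrays and bars for the mean ± SD. Rplp0 and Rps10 are highest on the KO saline arrays, Rpl7a has its highest mean there, Rps6 is lower in KO folinic acid (3294 ± 490, n = 4) than in KO saline (4364 ± 507, n = 3), and Rpl12 and Rps27 have their highest array in KO folinic acid.

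Among bright probe sets the median difference followed the brightness, in the members as in other genes. Of the 43 members, 33 had a mean log2 signal of 14 or more, and all 33 were lower in KO folinic acid than in KO saline under the deposited scaling, with a median of -0.58. The 10 members below 14 had a median of -0.27, and 8 of them were lower. They ran from -0.63 to 0.71, in no order of brightness. Among 76 other genes at or above 14, 68 were lower, with a median of -0.37. Of these, Fau, Rps3a1 and Rpl22l1 also encode ribosomal proteins whose symbols fall outside the naming rule. In the brightest class, at a mean log2 signal of 15 or more, the median was -0.64 over 20 members and -0.62 over 11 other genes. Rps3a1, at -0.62, was among these 11, as were Eef1a1 and Tpt1. Between 14 and 15 it was -0.49 over 13 members and -0.31 over 65 other genes. Other genes between 10 and 11 had a median of 0.013, and those between 13 and 14 of -0.16. Brightness here is that of a probe set and not a level that can be set against another gene. The difference between members and other genes of like brightness was not tested.

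**Figure D3:**
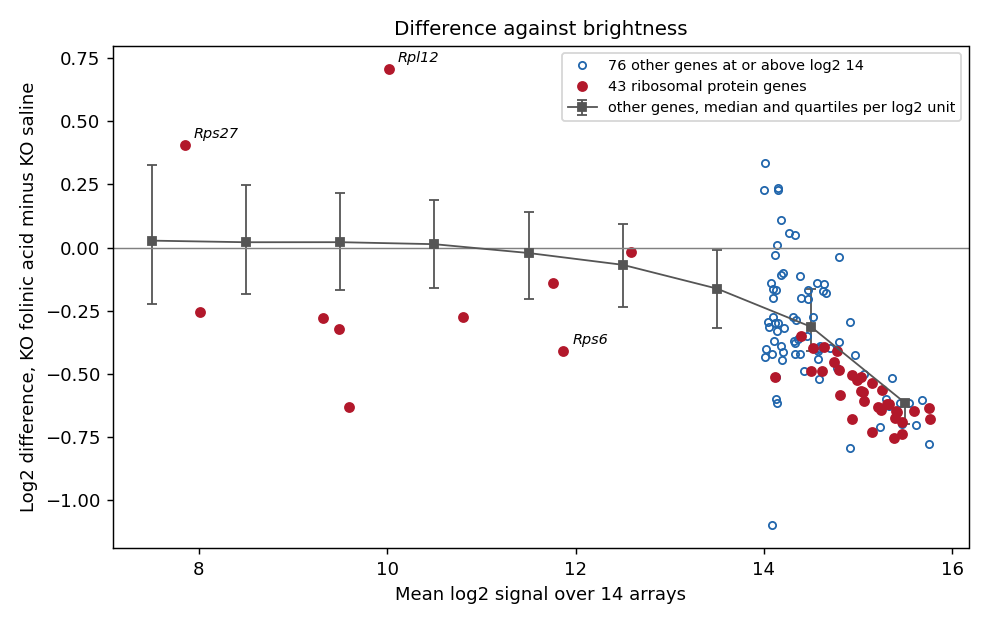
Log2 difference of KO folinic acid minus KO saline against the mean log2 signal over 14 arrays, for the 43 ribosomal protein genes (filled), 76 other genes at or above log2 14 (open), and the median with quartiles of all other genes in steps of 1 log2 unit (squares). The squares go down to -0.62 in the brightest class, where the members have a median of -0.64, and Rpl12 (0.71) and Rps27 (0.40) are the 2 members above 0.

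The same comparison in wild-type uteri asks for the response of normal animals to folinic acid. Here 39 of 43 members were lower in WT folinic acid than in WT saline, with a median log2 difference of -0.26, against 0.016 for all genes, but the median was 0.0026 under quantile normalization, the other sign, and -0.0031 with the spike covariate. No member and no probe set (0%) passed the adjusted threshold. The 5 members at an unadjusted p under 0.05, all lower, stood against 2.71% of all probe sets and 1.52% on the lower side. For 5 members the groups did not overlap on the lower side, against 2.09% of genes. They were Rpl4, Rpl7a, Rpl22, Rps9 and Rps19, of which Rpl4 and Rps9 are named because the count is small.

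Rpl7a had 30624, 25586 and 30901 in WT folinic acid and 33657, 38583, 33480 and 34810 in WT saline. The WT folinic acid arrays were all below, by -0.28 ± 0.12 on the log2 scale (SE; adjusted p = 0.999995). Rplp2 had 32272, 30145 and 41444 in WT folinic acid and 39803, 47335, 54706 and 39823 in WT saline. Its replicate 3 with folinic acid lay inside the saline range, at a log2 difference of -0.39 ± 0.14 (SE; adjusted p = 0.999995). Rps29, a small zinc finger protein, differed by -0.41 ± 0.18 (SE), which became 0.09 with the spike covariate, and Rpl22 by -0.25 ± 0.11 (SE). Rpl12 had 1393, 1601 and 986 in WT folinic acid and 1275, 989, 401 and 1185 in WT saline, with overlap. Its difference of 0.56 ± 0.33 (SE) was -0.16 with the spike covariate. Rpl27 and Rps27 were at 0.05 ± 0.19 and 0.14 ± 0.22 (SE). The WT folinic acid arrays differed among themselves, replicate 3 having the highest member median and spike signal of its group and replicate 2 the lowest. Without replicate 3 the median was -0.36, with 23 members at an unadjusted p under 0.05 against 3.44% of all probe sets. Without replicate 2 the median was -0.14, with no member at that level against 1.95% of all probe sets.

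Under saline, the genotypes differed in the opposite direction, and the question is what the mutation does without the supplement. Of the 43 members, 37 were higher in KO saline than in WT saline, with a median log2 difference of 0.26, against -0.0025 for all genes, and with 0.0058 under quantile normalization and 0.13 with the spike covariate. No member passed the adjusted threshold, which 0.00444% of probe sets passed. An unadjusted p under 0.05 was reached by 12 members, all higher, against 3.11% of all probe sets and 1.3% on the higher side. The groups did not overlap for 13 members on the higher side, against 2.22% of genes. All 33 members at or above log2 14 were higher, with a median of 0.28, while the 10 dimmer ones had a median of -0.04. Other genes at or above 14 had a median of 0.16, and in the class at or above 15 the medians were 0.29 over members and 0.31 over other genes.

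Rps3 had 30858, 39065 and 38578 in KO saline and 27947, 29270, 29868 and 28472 in WT saline. All KO saline arrays were above, by 0.32 ± 0.11 on the log2 scale (SE; adjusted p = 0.999771). Rps7, which like Rpl11 can bind Mdm2, had 41940, 45768 and 45204 in KO saline and 33255, 38810, 35663 and 32534 in WT saline. It did not overlap either, at 0.34 ± 0.12 (SE; adjusted p = 0.999771). Rpl7a, at 0.30 ± 0.12 (SE), overlapped, since KO saline replicate 1 lay just below the highest WT saline array. The lowest differences were those of Rpl39, Rpl12, Rps4l and Rpl37, all with a mean log2 signal below 14. Rpl39, a small protein of the exit tunnel, had 224, 287 and 230 in KO saline and 195, 332, 317 and 405 in WT saline, and differed by -0.30 ± 0.35 (SE). Rpl12 differed by -0.17 ± 0.33 (SE), with overlap. Rps4l, a copy related to Rps4x, and Rpl37 differed by -0.17 ± 0.31 and -0.16 ± 0.21 (SE), with overlap in both.

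Under folinic acid the genotypes were close. The median log2 difference of KO folinic acid to WT folinic acid was -0.04 over the 43 members, with 34 lower. It was -0.03 under quantile normalization and -0.04 with the spike covariate, and -0.11 over the 19 members with a probe set without a suffix for shared probes. It was 0.05, the other sign, with 31 of 43 higher, without WT folinic acid replicate 3, and -0.13, with 40 of 43 lower, without WT folinic acid replicate 2. No member passed the adjusted threshold, which 0.00444% of probe sets passed, and none had an unadjusted p under 0.05, against 3.81% of all probe sets and 2.3% on the lower side. No member was lower without overlap, against 3.27% of genes, and Rps27 was higher without overlap, against 1.73%. Rps27 had 245, 263, 296 and 332 in KO folinic acid and 203, 236 and 239 in WT folinic acid. All KO folinic acid arrays were above, at 0.32 ± 0.22 on the log2 scale (SE; adjusted p = 0.999377). On the lower side the smallest p values were those of Rpl39 (-0.56 ± 0.35), Rpl8 (-0.21 ± 0.12) and Rps6 (-0.23 ± 0.14, SE), and all 3 overlapped. Rplp2 and Rpl22 were at 0.03 ± 0.14 and 0.01 ± 0.11 (SE).

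The interaction, the folinic acid difference in KO minus that in WT, was below 0 for 38 of 43 members, with a median of -0.32, against -0.015 for all genes. It was -0.026 under quantile normalization, -0.19 with the spike covariate, -0.19 without WT folinic acid replicate 3 and -0.41 without WT folinic acid replicate 2. No member and no probe set (0%) passed the adjusted threshold, and 2 members, Rplp0 and Rps6, had an unadjusted p under 0.05, against 4.9% of all probe sets and 2.64% on the lower side. Rplp0 stood at -0.45 ± 0.19 and Rps6 at -0.44 ± 0.19 (SE; both with an adjusted p of 0.905). Rps6 was at -0.42 under quantile normalization, where Rplp0 had -0.13. Rps3 was at -0.32 ± 0.16 (SE). On the other side were Rps27 (0.26 ± 0.31), Rpl12 (0.14 ± 0.47) and Rpl37 (0.14 ± 0.30, SE). The comparisons share groups, so their counts do not stand as separate evidence.

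**Figure D4:**
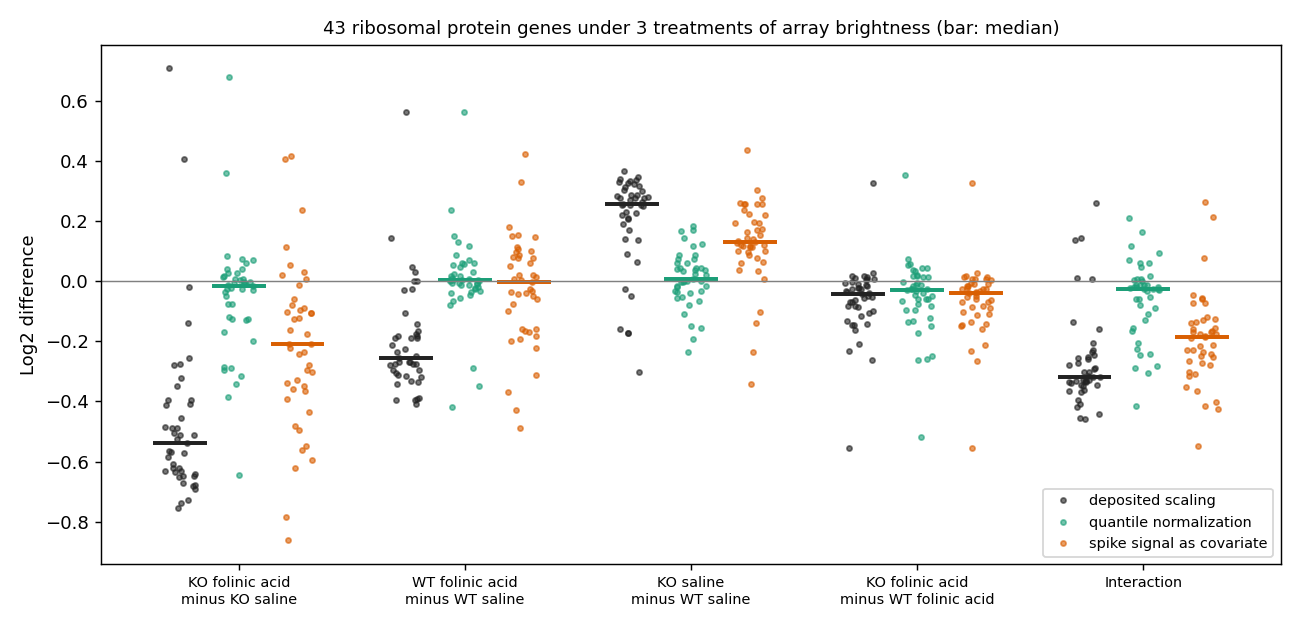
Log2 differences of the 43 ribosomal protein genes in each comparison and in the interaction, with a point for each gene and a bar for the median, under the deposited scaling, quantile normalization, and the spike signal as a covariate. The median for KO folinic acid minus KO saline is -0.54, -0.015 and -0.21, and that for WT folinic acid minus WT saline is -0.26, 0.0026 (the other sign) and -0.0031.

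The members differed in how much they varied over the 14 arrays. The SD of log2 signal was smallest for Rpl6 (0.18), Rpl22 (0.20) and Rps6 (0.20) and largest for Rpl12 (0.55), Rpl39 (0.51) and Rpl27a (0.50). Once the median of the members on each array was taken off, the SD of the 33 bright members had a median of 0.12, with a range of 0.05 to 0.29, and that of the 10 dimmer ones a median of 0.39, with a range of 0.18 to 0.73. The subunits gave close values, with a median log2 difference of KO folinic acid to KO saline of -0.51 over 22 large subunit and -0.57 over 21 small subunit members under the deposited scaling, and of -0.02 and -0.0094 under quantile normalization. Rps27l, a paralog of Rps27 induced by p53 in human cells, overlapped in all 4 groups, with 6109 ± 1058 (SD, n = 4) in KO folinic acid, 6181 ± 1051 (SD, n = 3) in KO saline, 6216 ± 76.4 (SD, n = 3) in WT folinic acid and 6576 ± 1860 (SD, n = 4) in WT saline. Among the members below the filter, Rpl39l had overlapping signals of 33.1 to 43.9 in KO folinic acid and 35.9 to 193 in KO saline, with 16.1 to 27.5 in WT folinic acid and 15.1 to 78.1 in WT saline, and Rpl3l lay at or below 121 on every array. The lone probe set of Rps16 lay at or below 19.3.

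For 19 of the 43 measured members, further probe sets were above the filter. Of these 42 other probe sets, 35 had the sign of the main one in KO folinic acid against KO saline. The 25 of them at or above log2 14 had a median of -0.60 and the 17 dimmer ones of -0.04, with a range of -0.52 to 0.65. For Rps10, 3 other probe sets were at -0.57, -0.66 and -0.62 while 2 more were at 0.36 ± 0.27 and 0.65 ± 0.51 (SE), the second of them with a mean log2 signal of 13.68. For Rps3 the other probe set was at -0.49 and at -0.51 under quantile normalization. For Rpl13a the other 3 were at -0.69, -0.52 and -0.33, and at -0.43, -0.40 and -0.12 under quantile normalization, where the main one was at -0.0049.

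Genes that work with the ribosome were read from lists chosen for this purpose. None of their members passed the adjusted threshold in any comparison. Of the 11 measured elongation factors and other mRNAs with a terminal oligopyrimidine tract, 10 were lower in KO folinic acid than in KO saline, 9 of them at an unadjusted p under 0.05 against 6.75% of all probe sets on the lower side. The remaining gene was higher, also at an unadjusted p under 0.05. The median of the 11 was -0.37, and -0.07 under quantile normalization. The lower ones included the elongation factor Eef1a1 (-0.70 ± 0.17), Tpt1 (-0.78 ± 0.21) and Naca of the nascent chain complex (-0.41 ± 0.11, SE). The paralog Rpl22l1 was at -0.44 ± 0.12 (SE). Translation initiation factors had a median of -0.16 over 32 genes, with 25 lower, such as Eif3k (-0.36 ± 0.13, SE). The 78 measured factors of rRNA processing and assembly had a median of -0.07, with 50 lower and 28 higher, among them Ncl, the nucleolar protein nucleolin, at -0.45 ± 0.12 (SE). For transcription of rRNA by RNA polymerase I the median was 0.01 over 13 genes, with the initiation factor Rrn3 at -0.49 ± 0.18 (SE).

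Mitochondrial ribosomal proteins were lower for 66 of 76 genes in KO folinic acid than in KO saline, with a median of -0.17 and of -0.19 under quantile normalization. Mrpl57 stood at -0.83 ± 0.18 and Mrps18a at -0.67 ± 0.17 (SE). Genes of the cell cycle had a median of -0.56 over 24 genes in that comparison, with 21 lower, and -0.57 under quantile normalization, among them Ccne2 (-1.09 ± 0.26) and Tk1 (-1.28 ± 0.41, SE). The list for control by mTOR, Myc and S6 kinase had a median of 0.06 over 25 genes, with 9 lower, where the Myc antagonists Mxd4 and Mxd1 stood at -0.61 ± 0.15 and 0.84 ± 0.27 (SE). For Trp53 and its targets the median was 0.16 over 16 genes, with Ccng1 at -0.68 ± 0.21 (SE). For folate uptake and one-carbon enzymes it was -0.27 over 17 genes, with 14 lower, the folate transporter Slc46a1 at -0.76 ± 0.25 (SE). Subunits of the exosome and of nonsense-mediated decay had a median of -0.05 over 15 genes. In KO folinic acid against WT folinic acid the median of the members was -0.04. There it was -0.15 for mitochondrial ribosomal proteins, with 62 of 76 lower, and -0.57 for the cell cycle, with 23 of 24 lower. For one-carbon genes it was -0.32, with 15 of 17 lower. For mTOR control, Trp53 and the exosome it was -0.05, -0.02 and -0.01.

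Of the 11 lists of cell type markers, 2 had summed signals that were lower without overlap in KO folinic acid than in KO saline. The stroma sum was also lower without overlap in WT folinic acid than in WT saline, and overlapped between genotypes under either injection. The blood sum was lower without overlap in KO folinic acid than in WT folinic acid, where the members' median was -0.04. It overlapped in KO saline against WT saline and in WT folinic acid against WT saline. All 12 markers of endometrial stroma were above the filter, and their sum lay between 147291 and 153494 in KO folinic acid, 161742 and 196082 in KO saline, 141137 and 147417 in WT folinic acid, and 166999 and 189256 in WT saline. A sum of linear signals weighs the brightest markers most, and these differed unequally. In KO folinic acid against KO saline the log2 difference was -0.63 for Col3a1, -0.14 for Col1a2 and -0.04 for Dcn. Col3a1 had a mean log2 signal of 15.33, in the class at or above 15 where other genes had a median of -0.62. The sums are given under the deposited scaling only. Of 7 blood markers 4 had a probe set and 1 was above the filter, with Hba-a1, Hba-a2 and Slc4a1 below it. Their sum lay between 328 and 524 in KO folinic acid, 615 and 773 in KO saline, 563 and 1103 in WT folinic acid, and 494 and 1453 in WT saline. Their part in the members' differences was not tested. All 10 markers of smooth muscle and 14 of 15 of the epithelium with a probe set were above the filter, and of 9 markers of the early embryo 8 were below it.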

How the data were processed

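RNA of 14 uteri was hybridized to 1-colour Affymetrix arrays. The deposited values are signal intensities on a linear scale, 1 per probe set, made by the authors with MAS5, per the submitters' processing notes. The mean after trimming 2% at each end was 500.002 to 500.003 on every array, so the deposited scaling was kept. Signals under 1 (0.505% of values) were raised to 1 and log2 was taken. The 64 control probe sets were set aside, and probe sets with a mean log2 signal of at least 7.07 (the median, a signal of 134) were tested. Symbols came from the platform annotation of 2016. The 4 group means were fitted together with limma 3.58.1 in R 4.3.3 (lmFit, and eBayes with a trend), and p values were adjusted by Benjamini-Hochberg over 22519 probe sets with a threshold of 0.05. The fit left 10 residual degrees of freedom, and the number of arrays limits the precision.

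Tested on simulated data for KO folinic acid against KO saline over 22519 probe sets, the fit called 62 of 100 simulated 2-fold and 95 of 100 simulated 4-fold changes, with 10 false calls. Single genes were named by a rule: those past the threshold, the 3 smallest p values in each direction of each comparison, the 3 largest and 3 smallest SDs, and genes of known roles. Rpl10l, in that rule, has no probe set among the members. Genes outside the rule were named after their values were seen: Rpl4, Rps9, Fau, Rps3a1, Col3a1, Col1a2 and Dcn. The members and lists were chosen with earlier results of these data known. Alternatives were quantile normalization, an offset of 16, no filter or the upper 35% of probe sets, all probe sets or only those without a suffix that marks shared probes, the groups compared only, variances without a trend, the actin 3′ to 5′ ratio or the spike signal as a covariate, a replicate block, and each array left out in turn.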

Additional observations from a re-analysis of the deposited data

Results flagged for a closer look

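In 4 of 50 groups of 4 arrays tested, over 23 named genes, 1 array lay far from the other 3 by Dixon's test, where chance alone flags about 1 in 20 groups and so 2.5 here. Rpl27 had a signal of 13165 on WT saline replicate 3, against 23736 to 24726 on the other WT saline arrays. Rps6 had 3366 on the same array, against 3870 to 3932 on the others. That array also had the highest spike signal (13.60 on the log2 scale) and the highest actin 3′ to 5′ ratio (3.64) of its group. Their part in these values was not tested. Rpl37 had 4792 on KO folinic acid replicate 2, against 2596 to 2912 on the other KO folinic acid arrays. Rps4l had 946 on KO folinic acid replicate 4, against 496 to 542 on the others.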

How the results depend on the processing

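The cause of the shifts below was not tested, except that settings with fewer probe sets or arrays have less to count. Member genes at an unadjusted p under 0.05 in KO folinic acid against KO saline numbered 33, against 12.8% of all probe sets. In the same fit they numbered 60 of 85 with all member probe sets and 6 of 19 with probe sets without a shared suffix. With quantile normalization there were 3, against 11.2%, and with the spike covariate 9, against 13.9%. Here and below, counts given without a share of all probe sets or genes are not read as results about the members. In WT folinic acid against WT saline the count of 5 became 15 of 85 with all member probe sets and 1 of 19 without a shared suffix, against 2.71% of all probe sets. It became 0 with quantile normalization, against 254 of 11269 genes, and 1 with the spike covariate, against 612. It became 1 with the groups compared only, 0 with no filter and 1 without a trend. In KO saline against WT saline the count of 12 became 2 of 19 without a shared suffix, against 3.11% of all probe sets. It became 0 with no filter, against 2130 of 45037 probe sets. It became 0 with quantile normalization, against 579 of 22519, and 3 without a trend, against 726. For the interaction the count of 2 became 5 of 85 with all probe sets, against 4.9% of all probe sets. It became 6 with the spike covariate, against 784 of 11269 genes, and 1 with quantile normalization, against 579. It became 5 with the actin covariate, 1 with no filter and 0 without a trend. For KO folinic acid against WT folinic acid the count of 0 became 1 with the spike covariate, against 1037 of 22519 probe sets. It was 1 with quantile normalization, against 909.

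The median log2 difference of the member genes moved as follows. In KO folinic acid against KO saline it was -0.21 with the spike covariate, -0.32 without a shared suffix and -0.015 with quantile normalization. In WT folinic acid against WT saline it was -0.0031 with the spike covariate, -0.0010 without a shared suffix and 0.0026 with quantile normalization. In KO saline against WT saline it was 0.13, 0.0991 and 0.0058 in the same order. For the interaction it was -0.19 with the spike covariate and -0.026 with quantile normalization.

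Leaving out 1 array at a time gave 0 to 24 member genes past the adjusted threshold in KO folinic acid against KO saline. The 24 came without KO folinic acid replicate 2, against 2.94% of all probe sets. There Rplp0 (-0.75, adjusted p = 0.0279), Rpl7a (-0.59, adjusted p = 0.031) and Rps10 (-0.70, adjusted p = 0.0251) passed in the limma fit. Counts at an unadjusted p under 0.05 ran from 0 to 2 in KO folinic acid against WT folinic acid. The 2 came without KO folinic acid replicate 2, against 1681 of all 22519 probe sets. In KO saline against WT saline the counts ran from 4 (without KO saline replicate 2 or WT saline replicate 1) to 21 (without WT saline replicate 3). Without KO saline replicate 2, 491 of 22519 probe sets were at that level. In WT folinic acid against WT saline the lowest count was 0 (without WT folinic acid replicate 2, against 1.95% of all probe sets). The highest was 23 (without WT folinic acid replicate 3, against 3.44%). For the interaction the counts ran from 0 (without KO folinic acid replicate 1 or WT folinic acid replicate 3) to 13 (without WT folinic acid replicate 2). The median ran from -0.36 to -0.14 in WT folinic acid against WT saline, -0.13 to 0.05 in KO folinic acid against WT folinic acid and -0.41 to -0.19 for the interaction.

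Replicate numbers did not pair the samples: same-numbered deviations correlated between -0.337 and 0.354 over 19 pairs of arrays, and other pairs between -0.47 and 0.473. With the replicate block the members' medians were -0.53 in KO folinic acid against KO saline, -0.27 in WT folinic acid against WT saline, 0.24 in KO saline against WT saline, -0.032 in KO folinic acid against WT folinic acid and -0.26 for the interaction. The block moved the unadjusted counts to 15 in WT folinic acid against WT saline and 1 for the interaction. In KO saline against WT saline the count was 5, against 616 of all 22519 probe sets. In KO folinic acid against WT folinic acid it was 1, against 789 of 22519. With the block 0 members passed the adjusted threshold.

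Of 655 alternatives for 29 pairs of named gene and comparison, 629 kept direction and side of the threshold, 3 passed it and 23 changed sign. In KO folinic acid against KO saline, Rpl12 was at -0.33 with the spike covariate. In WT folinic acid against WT saline, Rpl12 was at -0.16 and Rps29 at 0.087 with the spike covariate, and Rpl27 at -0.31 with the spike covariate and -0.061 with the actin covariate. In KO folinic acid against WT folinic acid, Rplp2 was at -0.012 with the actin covariate. In KO saline against WT saline, Rps4l was at 0.024 with the replicate block. For the interaction, Rpl12 was at -0.17 with the spike covariate. With 1 array left out in turn, Rpl27 in WT folinic acid against WT saline ran from -0.17 (without WT saline replicate 3) to 0.13. In KO folinic acid against WT folinic acid, Rplp2 ran from -0.066 (without WT folinic acid replicate 2) to 0.16 and Rpl22 from -0.057 (without WT folinic acid replicate 2) to 0.0955. In KO saline against WT saline, Rps4l ran from -0.35 to 0.16 (without KO saline replicate 1) and Rpl37 from -0.35 to 0.0038 (without KO saline replicate 3). For the interaction, Rpl12 ran from -0.055 (without WT folinic acid replicate 3) to 0.52, Rpl37 from -0.060 (without KO folinic acid replicate 2) to 0.33 and Rps27 from -0.0135 (without KO saline replicate 1) to 0.43.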

Other observations

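Ribosomal protein genes that share their probe sets with other symbols were outside the members, and their values are given here as they stand. Of 28 such genes, 27 had a probe set above the filter. All 27 were lower in KO folinic acid than in KO saline under the deposited scaling, with a median log2 difference of -0.57, 26 of them at an unadjusted p under 0.05, against 6.75% of all probe sets on the lower side, and none past the adjusted threshold. The median was -0.02 under quantile normalization and -0.23 with the spike covariate. Rplp1, the partner of Rplp2 on the stalk, was at -0.74, Rpl5, the partner of Rpl11, at -0.57, and Rpl3, next to the catalytic centre, at -0.65. Rpl10, which completes the large subunit in the cytoplasm, was at -0.63. In KO saline against WT saline all 27 were higher under the deposited scaling, with a median of 0.29 that was 0.0089 under quantile normalization. In WT folinic acid against WT saline 26 were lower, with a median of -0.25 that was 0.02 under quantile normalization, the other sign.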
